A study of Mus musculus with 4 samples.

Results

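Gh and Prl, the genes of growth hormone and prolactin, are 2 of the 31053 features counted in single cells of the mouse pituitary, and both were found by their symbols. They were followed as a share of the UMIs (unique molecular identifiers, tags that mark each captured RNA molecule) of every cell barcode, over all deposited barcodes and over kept barcodes, those with at least 500 detected genes and at most 20% of UMIs from mitochondrial genes. The libraries came from mice with transgenic overexpression of p25 (p25OE) aged 14 weeks, their wild-type (WT) littermates aged 14 weeks, p25OE mice aged 40 weeks and WT littermates aged 40 weeks. All 4 carry the strain label C57BL/6- B6;CBA-BiTg, and the series' design text names C57BL/6 mice. p25 is cleaved from p35, the product of Cdk5r1, which turns on the kinase Cdk5. The sources used here give neither the promoter of the transgene, nor the sex of the mice, nor how many glands were pooled.

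Growth hormone is made by somatotrophs, where the hypothalamic releasing hormone acts through its receptor Ghrhr, and it acts on its targets through the kinase Jak2 and Stat5 proteins, which induce Igf1 and the feedback inhibitors of the Socs family. Prolactin is made by lactotrophs, which dopamine restrains through the receptor Drd2. Both genes depend on the pituitary factor Pou1f1, and both messages are so abundant that broken cells leave them in the suspension, where droplets without such a cell take them up as free RNA.

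With 1 library per group there is no replicate spread for any comparison here, and p-values are not given. Bounds in parentheses are exact 95% limits for counting error only, except that the share allowed by a count of 0 is 3 counts of the total. The libraries held between 53714895 and 95242353 UMIs in 8125 to 15018 barcodes, of which 6579 to 7927 per library were kept. The share of barcodes left out for few genes was 43.6% in the p25OE and 18.5% in the WT library at 14 weeks, and 4.46% in the p25OE and 34.2% in the WT library at 40 weeks. The kept barcodes held 14.4 (13.5 to 15.3) CPM (UMIs scaled to a common library total) of Cdk5r1 in the p25OE and 10.8 (10.1 to 11.5) in the WT library at 14 weeks, and 17.5 (16.5 to 18.6) in the p25OE and 10.4 (9.55 to 11.4) in the WT library at 40 weeks. Whether RNA of the transgene is counted under Cdk5r1 is not given in the sources used here. Xist was counted 57999 to 92617 times per library and each of 4 Y-linked genes at most 10 times. The 2 libraries of 14 weeks shared 32 barcode sequences and the 2 of 40 weeks shared 135. The shared sequences stayed in, and the results that could rest on them are given without them as well.

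Gh (ENSMUSG00000020713) lies on chromosome 11 at positions 106300271 to 106301865 of the mouse build GRCm38 (mm10), on the minus strand. Prl (ENSMUSG00000021342) lies on chromosome 13 at positions 27057570 to 27065205, on the plus strand. Both are protein-coding, and neither gene overlaps another on its own strand within the annotation used (GENCODE M21). The antisense model Gm47888 covers 453 bases at the 5′ end of Prl, the end away from the 3′ tags counted here. The prolactin family, 25 further genes most of which are known from the placenta, contributed little: 3 of them had no UMI in kept barcodes, the highest, Prl2a1, had 48 in all, and the family together had 173.

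Gh and Prl together made up a large share of the UMIs of both libraries of 14 weeks and of the WT library of 40 weeks, and a small share of those of the p25OE library of 40 weeks. Over kept barcodes Gh took 9.25% of UMIs in the p25OE and 11.5% in the WT library at 14 weeks, and 0.216% in the p25OE and 15.2% in the WT library at 40 weeks. Prl took 14.2% in the p25OE and 20.3% in the WT library at 14 weeks, and 0.667% in the p25OE and 14.1% in the WT library at 40 weeks. The p25OE library of 40 weeks thus stood far below the other 3 for both genes, while the pair of 14 weeks differed by less than 1.5-fold. At 14 weeks the ratio of p25OE over WT was 0.803 (0.803 to 0.804) for Gh and 0.698 (0.697 to 0.698) for Prl. At 40 weeks the p25OE share was 70.3-fold lower (69.9 to 70.7) for Gh and 21.1-fold lower (21.0 to 21.2) for Prl, and without the shared barcode sequences the ratios were 0.0144 for Gh and 0.0437 for Prl. In such sums fewer cells of a type and less RNA per cell cannot be told apart.

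Over kept barcodes the share of each gene had a high and a low group of values in every library. A share of UMIs is not an amount of RNA per cell, so these groups do not fully separate the number of cells from their RNA. In kept barcodes the high mode of Gh lay at 40.7% of a barcode's UMIs in the p25OE and 45.7% in the WT library at 14 weeks, and at 25.7% in the p25OE and 41.7% in the WT library at 40 weeks. The high mode of Prl lay at 50.1% in both libraries of 14 weeks, and at 46.8% in the p25OE and 35.5% in the WT library at 40 weeks. The high mode of each gene thus lay above 20% in every library, also in the p25OE library of 40 weeks. Single kept barcodes reached 79.5% Gh in the p25OE and 76.2% in the WT library at 14 weeks, and 48.6% in the p25OE and 75.5% in the WT library at 40 weeks. For Prl the highest barcode had 87.4% in the p25OE and 88.0% in the WT library at 14 weeks, and 75.4% in the p25OE and 72.6% in the WT library at 40 weeks.

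**Figure D1:**
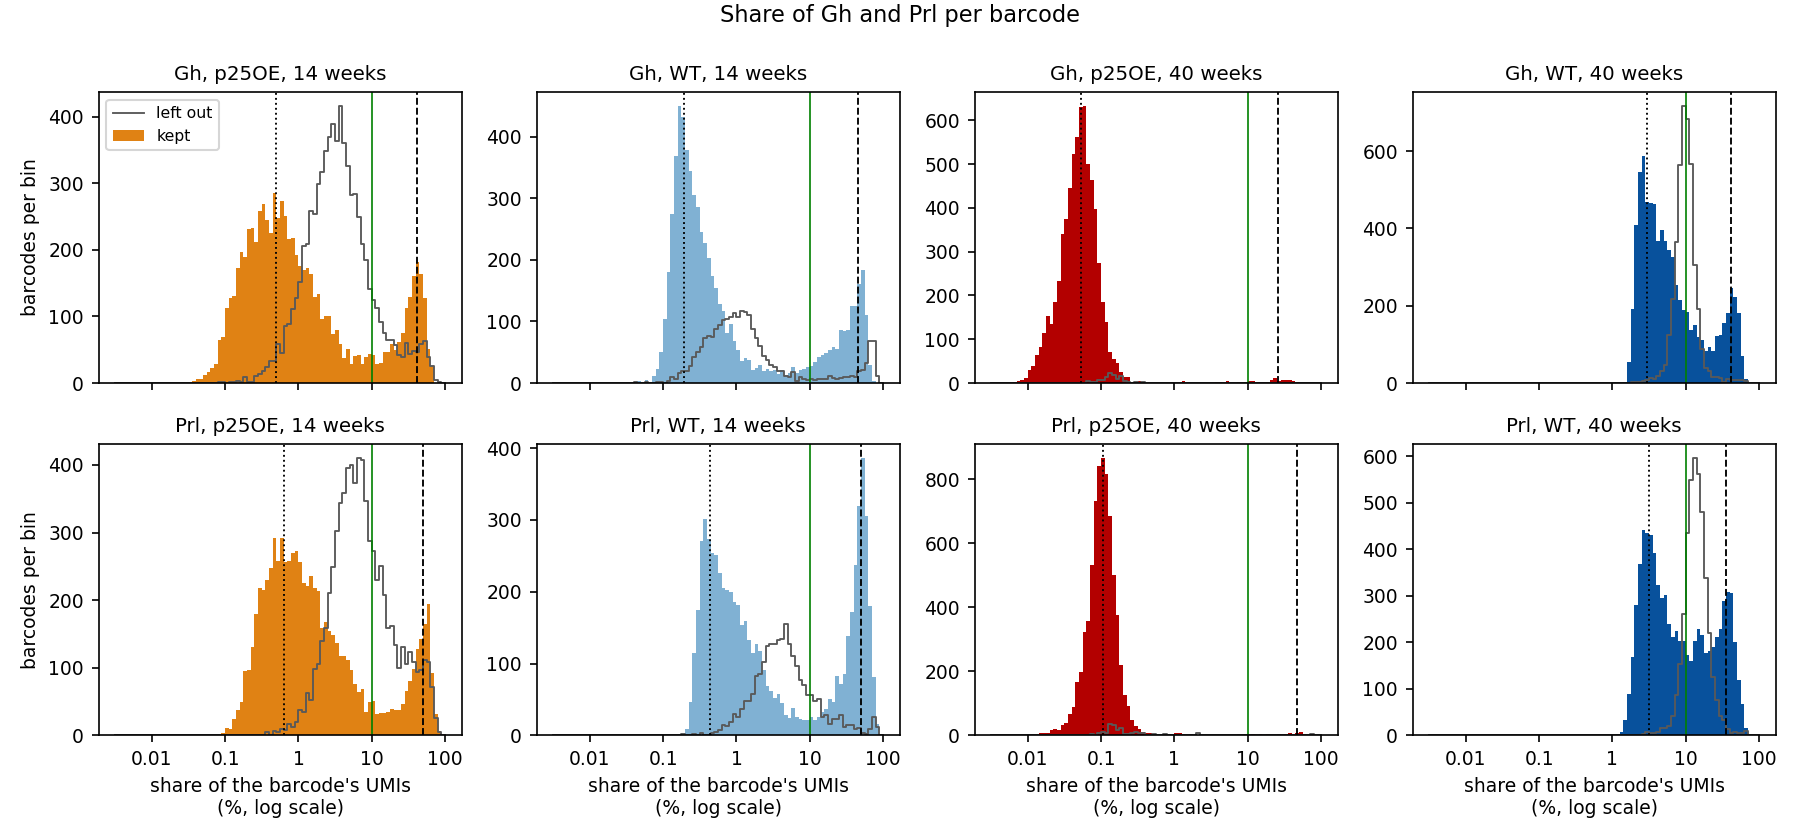
Share of Gh (top) and Prl (bottom) per barcode in the 4 libraries, on a log axis in percent of the barcode's UMIs; filled bars count kept barcodes, the grey line barcodes left out, the dotted and dashed lines mark the background and the high mode of kept barcodes and the green line 10%. Barcodes with no UMI of the gene are not drawn. The high mode is present in each panel but small in the p25OE library of 40 weeks, and in the WT library of 40 weeks the barcodes left out peak near the green line.

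The low mode, called the background here, differed far more between libraries than the high mode did. For Gh it lay at 0.490% in the p25OE and 0.191% in the WT library at 14 weeks, and at 0.0537% in the p25OE and 2.95% in the WT library at 40 weeks. For Prl it lay at 0.631% in the p25OE and 0.437% in the WT library at 14 weeks, and at 0.105% in the p25OE and 3.16% in the WT library at 40 weeks. In the WT library of 40 weeks every kept barcode held both messages, with at least 1.53% Gh and at least 1.13% Prl. In the p25OE library of 40 weeks 857 of 7726 kept barcodes had no Gh UMI and 342 had no Prl UMI. The order of the libraries by background at 40 weeks followed the order of their total share: the background mode of the p25OE library was 55.0-fold lower than that of the WT library for Gh and 30.2-fold lower for Prl. At 14 weeks the mode was higher in p25OE, with ratios of p25OE over WT of 2.57 for Gh and 1.45 for Prl. Summed over all barcodes under 10%, however, the Gh share at 14 weeks was 0.592% in the p25OE and 0.581% in the WT library (ratio 1.02) and the Prl share 0.902% in the p25OE and 0.845% in the WT library (ratio 1.07).

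The number of barcodes with at least 10% of their UMIs from a gene shows how the shares were made up. For Gh these were 1388 of 7667 kept barcodes (18.1%, 17.2 to 19.0) in the p25OE and 1356 of 6579 (20.6%, 19.6 to 21.6) in the WT library at 14 weeks. At 40 weeks they were 65 of 7726 (0.841%, 0.650 to 1.07) in the p25OE and 2279 of 7927 (28.7%, 27.8 to 29.8) in the WT library. The Gh-rich barcodes were thus 34.2-fold rarer in the p25OE library of 40 weeks, whereas their median Gh share there was 23.9% against 29.9% in the WT library. With the valley between the 2 modes of each library as the threshold, which is 2.45% in the p25OE and 20.4% in the WT library, the Gh-rich barcodes at 40 weeks were 1.06% in the p25OE and 18.6% in the WT library, a ratio of 0.0570. None of the 65 carried a barcode sequence that the WT library of 40 weeks also held.

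For Prl the barcodes at 10% or more were 1348 (17.6%, 16.7 to 18.5) in the p25OE and 2316 (35.2%, 34.0 to 36.4) in the WT library at 14 weeks, a ratio of 0.499 (0.467 to 0.534). At 40 weeks they were 67 (0.867%, 0.673 to 1.10) in the p25OE and 3277 (41.3%, 40.3 to 42.4) in the WT library, 47.7-fold rarer in p25OE. Their median Prl share was 43.1% in the p25OE and 46.8% in the WT library at 14 weeks, and 38.2% in the p25OE and 26.7% in the WT library at 40 weeks. The Prl-rich barcodes of p25OE were thus fewer at both ages, and at 40 weeks their median share was above that of WT. Of the 67 in the p25OE library of 40 weeks, 5 carried a sequence shared with the WT library, and without shared sequences 0.816% of the barcodes remained in that class. Over all deposited barcodes the ratio at 14 weeks was 0.836 in place of 0.499.

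In number, few barcodes lay near the 10% line except in the WT library of 40 weeks. Just below it, from 8% to 10%, lay 82 barcodes for Gh in the p25OE and 49 in the WT library at 14 weeks, and 3 in the p25OE and 381 in the WT library at 40 weeks. Just above it, from 10% to 12%, lay 56 in the p25OE and 50 in the WT library at 14 weeks, and 7 in the p25OE and 257 in the WT library at 40 weeks. Those of 40 weeks were 7 of 65 Gh-rich barcodes in the p25OE and 257 of 2279 in the WT library. For Prl the WT library of 40 weeks had 388 barcodes just below and 259 just above the line, and the other libraries had at most 78 and 73.

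Barcodes at 10% or more for both genes were rare or shallow. They were 39 (0.509%, 0.362 to 0.695) in the p25OE and 68 (1.03%, 0.803 to 1.31) in the WT library at 14 weeks. At 40 weeks they were 0 of 7726 in the p25OE library, which allows a share of up to 0.0388%, and 550 (6.94%, 6.39 to 7.52) in the WT library. The count of that WT library depended on the threshold: it was 2331 (29.4%) at 5%, 63 (0.795%) at the valleys of the library and 8 (0.101%) at 20%, where the p25OE library had 0, 1 and 0. At 14 weeks they were deeper than single-hormone barcodes, with median totals of 24519 UMIs in the p25OE and 34230 in the WT library, which is 2.18 times that of Gh-high barcodes in p25OE and 1.91 times in WT. In the WT library of 40 weeks their median was 1620.5 UMIs and 627.5 genes, 0.195 times the depth of Gh-high barcodes. Their median Pomc share there was 4.74%, against 1.13% in Gh-high and 1.39% in Prl-high barcodes, and Pomc is the hormone gene of another cell lineage. Doublets were not called and remain among the barcodes, and whether a barcode with both genes was 1 cell, several cells or free RNA was not tested.

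**Figure D2:**
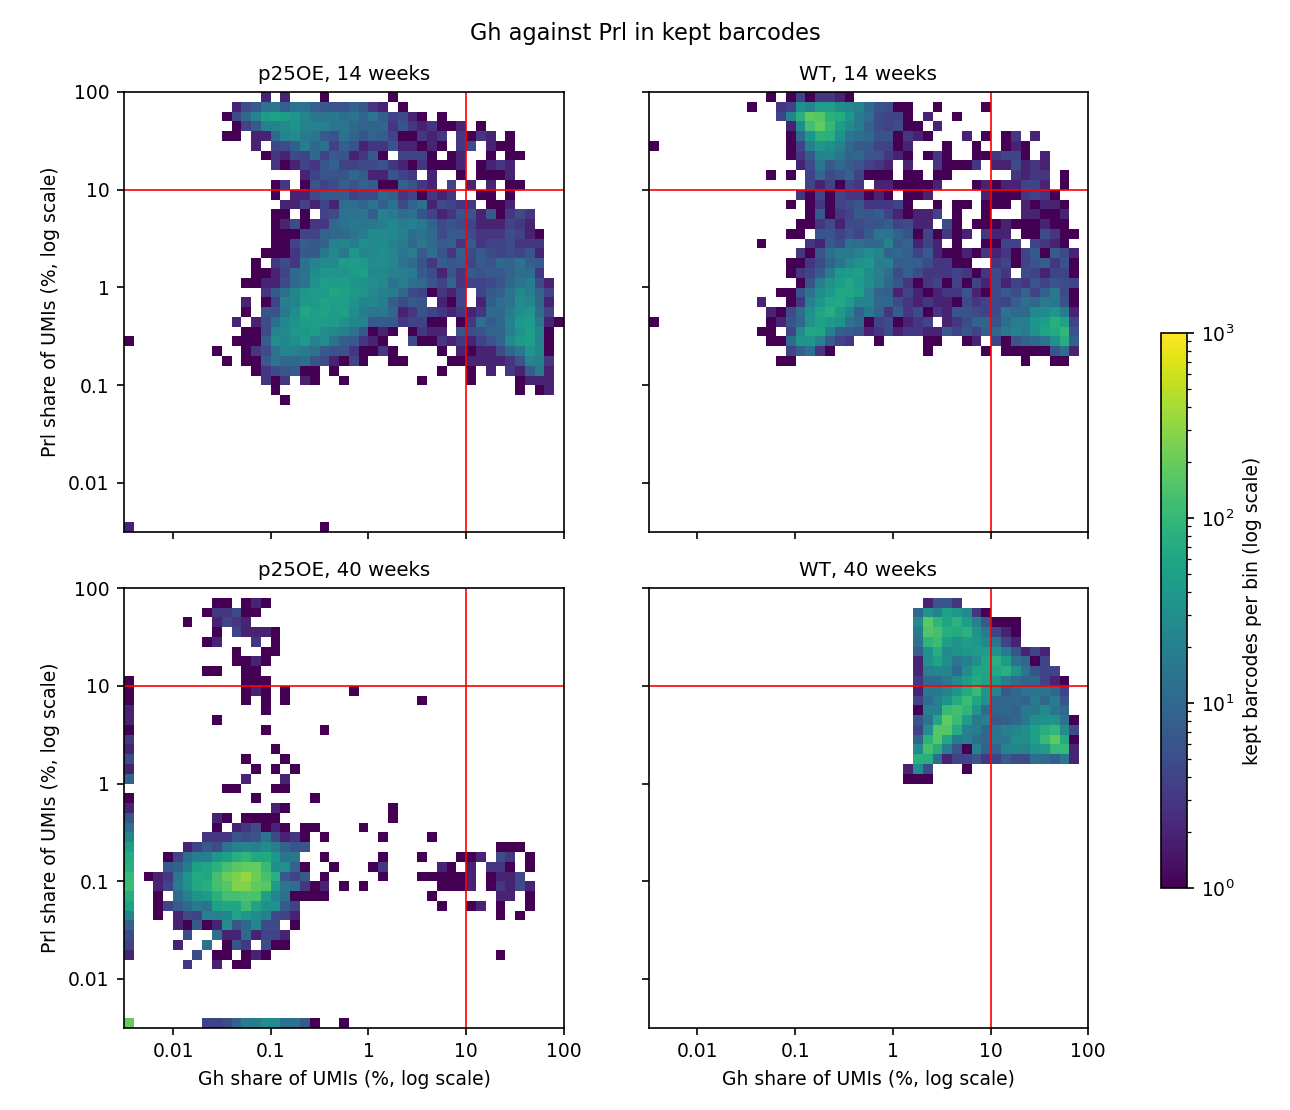
Gh share against Prl share of each kept barcode in the 4 libraries, both on log axes in percent of UMIs, coloured by the number of barcodes per bin; values under the axis range, zeros included, are drawn in the first bin and the red lines mark 10%. The upper right corner holds 39 and 68 barcodes at 14 weeks (p25OE, WT), and 0 and 550 at 40 weeks, where the diagonal band of the WT library runs into it.

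Depth separated the libraries further when all deposited barcodes were taken. Both genes reached 10% in 264 (1.76%) of the barcodes of the p25OE and 80 (0.898%) of the WT library at 14 weeks, while at 40 weeks no barcode of the p25OE library (0 of 8125, which allows up to 0.0369%) and 2354 (19.5%) in the WT library did so. In the WT library of 40 weeks 50.6% of the barcodes with fewer than 1000 UMIs had both genes at 10% or more, and 0.503% of those with 5000 UMIs or more but fewer than 10000. The median Gh share in that library was 10.2% in the first of these bins and 3.13% in the second, and the median Prl share was 13.9% and 3.67%. Up to 20000 UMIs the medians of both genes were lower the deeper the barcodes were, while above it the median Gh share was 31.4% (8 barcodes had both genes there). Up to 20000 UMIs the medians of both genes fell with depth in both libraries of 14 weeks as well. Under 1000 UMIs and from 5000 to 10000, the median Gh share was 3.78% and 0.464% in the p25OE library of 14 weeks. In the WT library of 14 weeks it was 1.43% and 0.276%. The median Prl share in these bins was 7.13% and 0.798% in that p25OE and 4.67% and 0.948% in that WT library. The p25OE library of 40 weeks showed no such slope. Among its barcodes of 1000 UMIs or more the median Gh share lay between 0.0464% and 0.0537% in every depth bin. The p25OE library of 14 weeks had 193 barcodes with both genes in the lowest bin and the WT library 6.

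**Figure D3:**
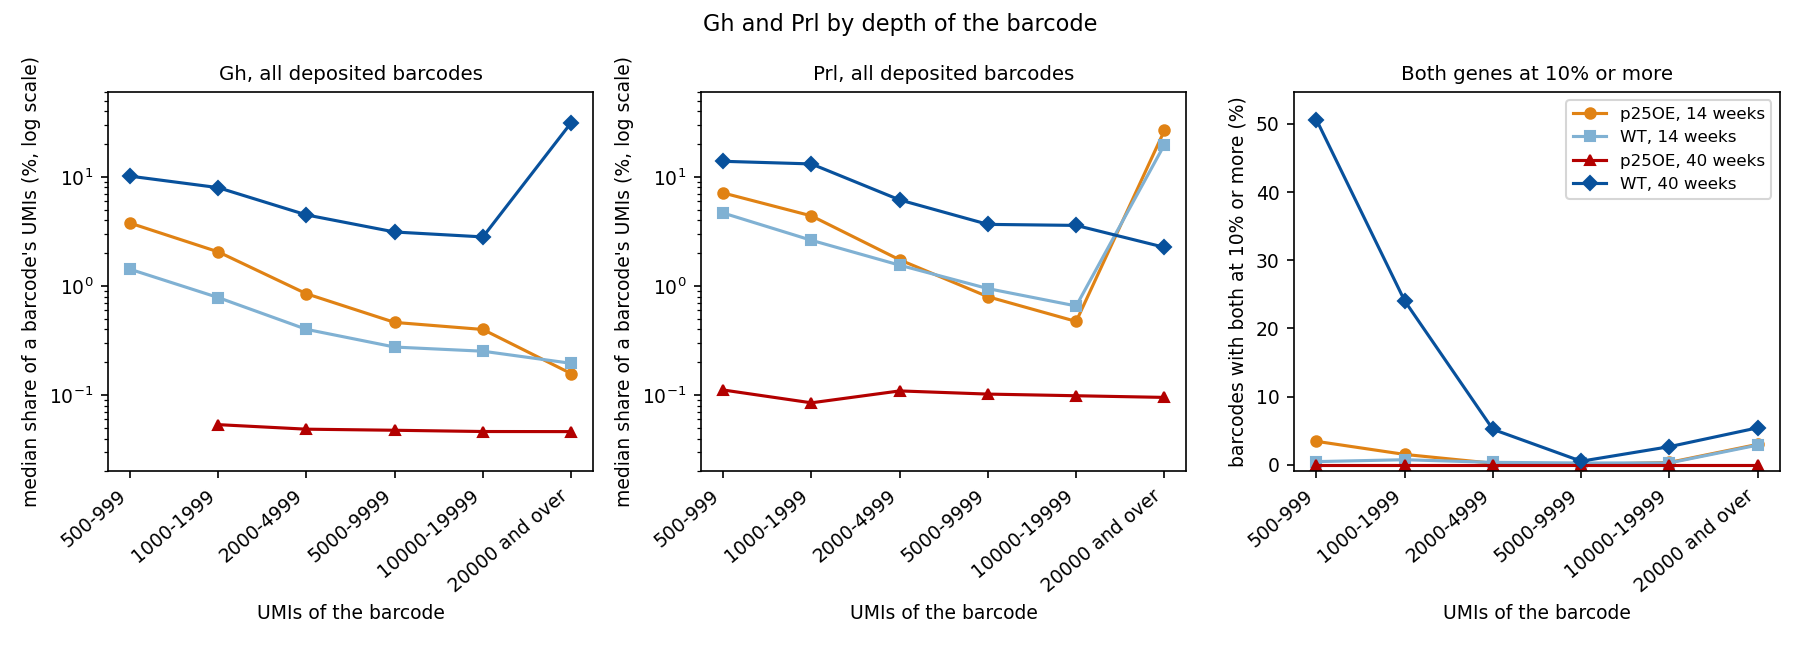
Median Gh share, median Prl share (log axes) and percent of barcodes with both genes at 10% or more, by total UMIs of the barcode, over all deposited barcodes of the 4 libraries. A median of 0 (Gh in the lowest bin of the p25OE library of 40 weeks) is not drawn. In the WT library of 40 weeks the percent with both genes is 50.6 in the lowest bin and 0.503 from 5000 UMIs up to 10000.

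Cells were also grouped without the 2 genes, by clustering on all other genes and naming clusters from marker genes. Of the named classes, the somatotroph-like cells stood apart for Gh. Gh made up 39.3% of their UMIs in the p25OE and 40.4% in the WT library at 14 weeks and 36.3% in the WT library at 40 weeks, and no class of 50 cells or more in the p25OE library of 40 weeks had that name. The next classes, T or NK-like, gonadotroph-like, macrophage-like and corticotroph-like, had overlapping ranges over libraries, and the melanotroph-like cells, the Pomc-rich cells of the intermediate lobe, came last with a median of 0.433%. The share of Gh in melanotroph-like cells, which should lack it, was 0.592% in the p25OE and 0.273% in the WT library at 14 weeks, and 0.0559% in the p25OE and 2.85% in the WT library at 40 weeks. The 14-week order of that class was a ratio of 2.16, and it turned round to 0.504 when cluster 28, whose genes are given with the Gh-high barcodes, was counted with it and to 0.498 with fewer, larger clusters (resolution 0.5). The summed shares of T or NK-like and gonadotroph-like cells at 14 weeks ran the other way, with 1.16% in the p25OE and 7.54% in the WT library for T or NK-like cells and 2.70% in the p25OE and 10.7% in the WT library for gonadotroph-like cells. Their medians over barcodes did not: they were 0.676% in the p25OE and 0.420% in the WT library for T or NK-like cells, and 0.623% in the p25OE and 0.270% in the WT library for gonadotroph-like cells, of which 5.88% in the p25OE and 19.0% in the WT library had Gh at 10% or more.

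Prl had no single home among the named classes. Lactotroph-like cells held 24.2% Prl in the p25OE library of 14 weeks and 34.1% in the WT library of 40 weeks. Higher shares fell in unnamed clusters: cluster 1, led by Crhbp, Creb3l1 and Col1a2, held 52.0% in the p25OE and 48.1% in the WT library at 14 weeks, and cluster 14 held 53.6% in the p25OE and 57.4% in the WT library. These clusters carried 4 and 3 lactotroph markers, and they stayed unnamed because a gene of the fibroblast list, Col1a2, was among their leading genes. Among the classes found in 3 or more libraries, which leaves out lactotroph-like cells, macrophage-like cells had the highest summed share. Its median over libraries was 8.69%. The ranges of neighbouring classes overlapped throughout, so that their order was within the spread between libraries. In macrophage-like cells at 14 weeks the median barcode held 1.97% Prl in the p25OE and 1.31% in the WT library, and 9.84% of them in the p25OE and 9.34% in the WT library had Prl at 10% or more. At 40 weeks the median macrophage-like barcode held 0.107% Prl in the p25OE and 8.31% in the WT library. Prl reached 10% in 0.897% of these in the p25OE and 41.2% in the WT library.

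**Figure D4:**
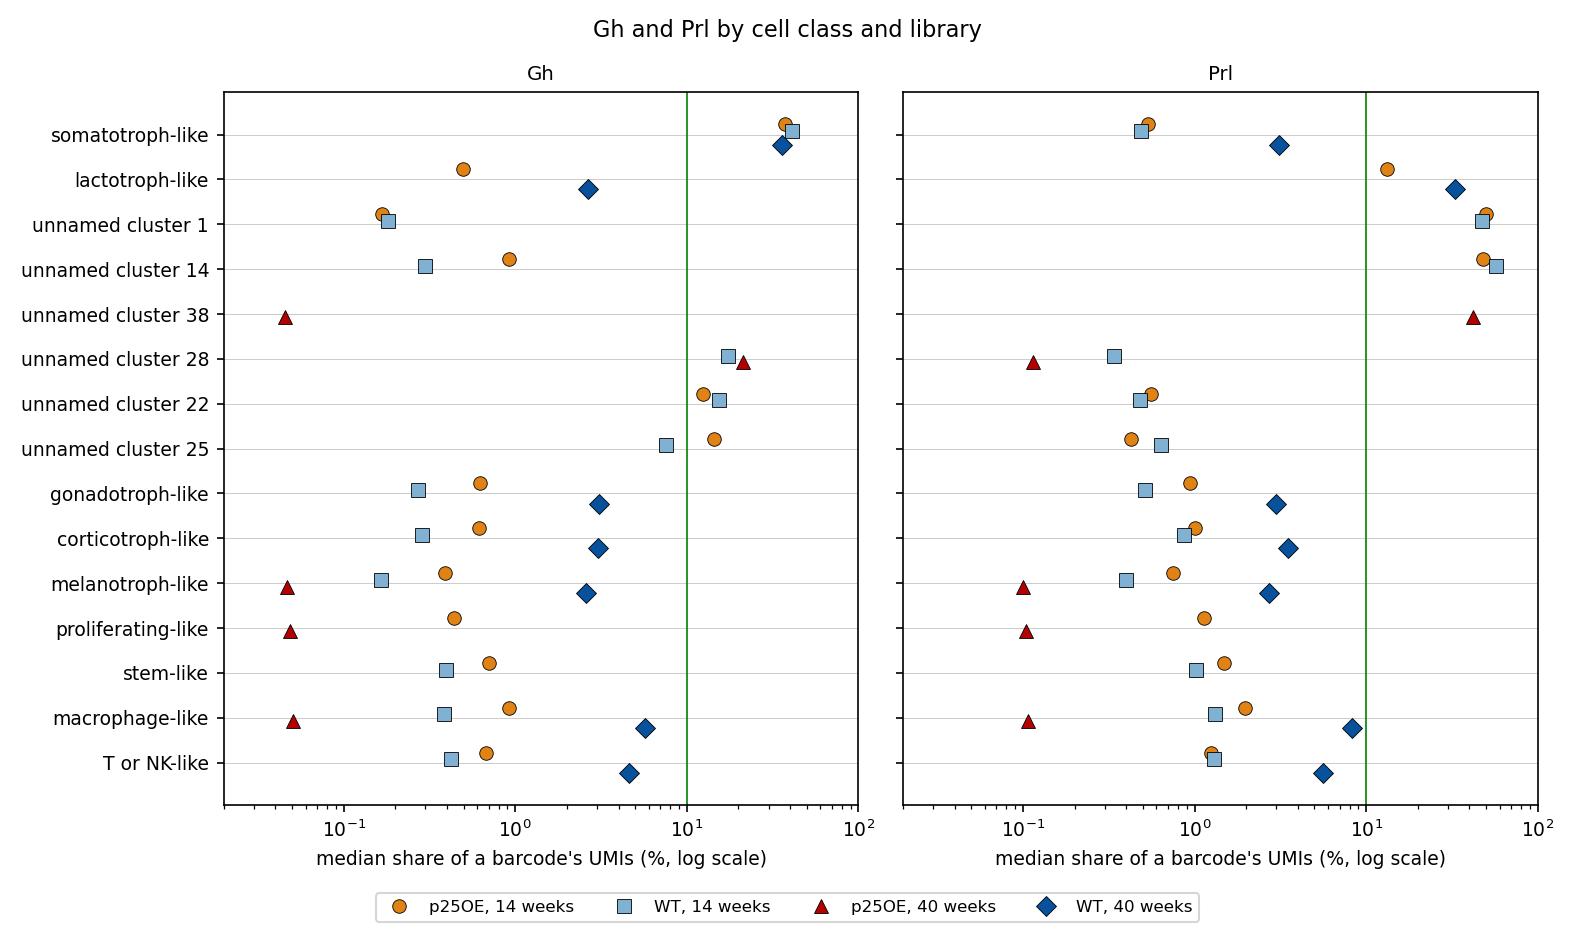
Median share of a barcode's UMIs taken by Gh (left) and Prl (right) in cell classes (rows) of at least 50 barcodes in a library, on a log axis in percent; each symbol is 1 library and the green line is 10%. In the melanotroph-like and macrophage-like rows the symbols order by library, with the WT library of 40 weeks highest and the p25OE library of 40 weeks lowest.

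The clusters that held the hormone-rich barcodes differed between libraries, and this was so within WT as well. The libraries were clustered together without a correction for differences between them. Somatotroph-like barcodes lay mostly in cluster 2 at 14 weeks (1230 in p25OE, 1081 in WT) and in cluster 5 in the WT library of 40 weeks (1613). Barcodes with Gh at 10% or more and Prl below it, called Gh-high here, lay in somatotroph-like cells in 1090 of 1349 cases (80.8%) in the p25OE and 927 of 1288 (72.0%) in the WT library at 14 weeks, and in 1330 of 1729 (76.9%) in the WT library at 40 weeks. In the p25OE library of 40 weeks 56 of 65 (86.2%) lay in cluster 28. That cluster was left unnamed since it held 6 melanotroph markers and, as its second class, somatotroph markers, with Oacyl, Pcsk2, Pax7 and Ghrhr among its leading genes. It held 37 barcodes of the p25OE and 51 of the WT library at 14 weeks too, and Gh made up 22.1% of its UMIs there in p25OE and 17.5% in WT, against 20.2% in the 76 barcodes of the p25OE library at 40 weeks. These barcodes differed in other ways. Their median totals were 19009 UMIs in the p25OE and 34537 in the WT library at 14 weeks, and 5453 in the p25OE library of 40 weeks. Their median Pomc shares were 2.83%, 12.7% and 1.39% in the same order. What these barcodes hold was not tested. Prl-high barcodes, defined the other way round, lay in cluster 1 in 49.0% of cases in the p25OE and 72.0% in the WT library at 14 weeks. At 40 weeks 49 of 67 (73.1%) of the p25OE library lay in cluster 38, led by Prss28, Chgb and Ccdc80, and 50.7% of the 2727 of the WT library lay in lactotroph-like cells. Of those of the WT library a further 28.6% lay in unnamed cluster 8, with a median of 1879 UMIs, and 9.17% in macrophage-like cells. Cluster 1 held 1 of them. Values of p25OE and WT set against each other at 40 weeks therefore come from different clusters.

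The genes whose level followed Gh most closely over 46 points (class and library), among 14979 genes, were Rxrg (Pearson's r = 0.946), a retinoid receptor, Ceacam10 (0.907), Ghrhr (0.906), 5330429C05Rik (0.903) and Pappa2 (0.873), a protease that cleaves binding proteins of insulin-like growth factors. For Prl they were Crhbp (0.946), which binds corticotropin-releasing hormone, Reln (0.912), Creb3l1 (0.902), Rxfp1 (0.899), the relaxin receptor, and Hepacam2 (0.878). Between Gh and Prl themselves r was 0.220. The points share libraries and their background, and Ghrhr, Ceacam10 and Pappa2 were among the markers that named the somatotroph-like clusters, so these values are a description.

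Ghrhr, the receptor of the releasing hormone, went with Gh. It stood at 212 CPM in Gh-high barcodes of the p25OE and 193 in those of the WT library at 14 weeks, and at 270 in the p25OE and 167 in the WT library at 40 weeks, with Gh and Prl left out of the total. In Prl-high barcodes it stood at 2.97 in the p25OE and 2.38 in the WT library at 14 weeks, and at 0 in the p25OE and 11.3 in the WT library at 40 weeks. Each library thus had Ghrhr in its Gh-high barcodes and at most 11.3 CPM of it in its Prl-high ones. Crhbp ran the other way at 14 weeks, with 1440 CPM in the Prl-high barcodes of the p25OE and 2718 in those of the WT library, and 12.2 CPM in the Gh-high barcodes of the p25OE and 29.9 in those of the WT library. At 40 weeks the Prl-high barcodes held 218 CPM of Crhbp in the p25OE and 1046 in the WT library.

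Pou1f1 was high in both classes and low elsewhere. Gh-high barcodes held 332 CPM in the p25OE and 363 in the WT library at 14 weeks, and 278 in the p25OE and 277 in the WT library at 40 weeks. Prl-high barcodes held 450 in the p25OE and 572 in the WT library at 14 weeks, and 241 in the p25OE and 405 in the WT library at 40 weeks. Barcodes low for both held 25.6 in the p25OE and 63.9 in the WT library at 14 weeks, and 1.89 in the p25OE and 76.3 in the WT library at 40 weeks. The core of the sequence that Pou1f1 binds reads TATNCAT. The 250 bases before the start of Prl (chr13:27057320-27057569, plus strand, GRCm38.p6, sequence from RefSeq) are shown because they hold it 2 times, once on each strand, in capitals:

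Prl: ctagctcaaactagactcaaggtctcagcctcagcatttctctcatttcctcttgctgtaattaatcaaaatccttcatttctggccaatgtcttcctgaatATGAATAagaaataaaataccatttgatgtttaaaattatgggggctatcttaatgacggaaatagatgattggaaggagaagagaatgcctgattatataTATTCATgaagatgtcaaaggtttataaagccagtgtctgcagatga

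One match runs from position -47 to -41 on the plus strand and the other from -148 to -142 on the minus strand, counted back from the start of the gene. Of 32851 mouse promoter windows of the same length 7.92% hold a match on either strand and 1.26% hold as many as Prl. A match is a string of letters and not a site of binding.

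A neighbour of Gh was followed because it lies close by. Cd79b, the gene of a B-cell receptor component, is the next gene upstream of Gh, on the same strand at positions 106311341 to 106314762 of chromosome 11, 9476 bases away. Its level was 43.7 CPM in Gh-high barcodes of the p25OE and 36.0 in those of the WT library at 14 weeks, and 33.3 (9 UMIs) in the p25OE and 23.4 in the WT library at 40 weeks. In Prl-high barcodes it was 2.05 in the p25OE and 1.63 in the WT library at 14 weeks, and 0 in the p25OE and 4.38 in the WT library at 40 weeks. Cd79b thus accompanied Gh and not Prl in each of the 4 libraries. B-like cells held 1240 CPM in the WT library of 14 weeks (24 cells) and 457 in the WT library of 40 weeks (28 cells), and melanotroph-like cells 0.359 in the p25OE and 0.198 in the WT library at 14 weeks, and 0.337 in the p25OE and 3.47 in the WT library at 40 weeks. Macrophage-like cells held 49.4 in the p25OE and 49.6 in the WT library at 14 weeks, so the level in Gh-high barcodes was not above that of every other class. The values of cell classes keep Gh and Prl in the total, while those of Gh-high and Prl-high barcodes leave them out.

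For the genes of the hormones' pathways, UMIs were summed over barcodes, scaled so that the median gene had a ratio of about 1, and a gene counted as higher or lower when the whole interval of the ratio of p25OE over WT lay beyond 1.5-fold. Over all kept barcodes at 40 weeks 33.3% of 15523 genes passed, 16.0% higher and 17.4% lower in p25OE; with plain CPM 5825 genes were higher and 1718 lower in place of 2480 and 2696. Of 13 lineage factors with enough UMIs 2 were higher and 7 lower (median log2 ratio -1.99, against 0.01 over all genes), and of 12 receptors 1 was higher and 7 lower (median -1.31). Pou1f1 was 50.2-fold lower, Ghrhr 29.2-fold and Rxrg 41.0-fold lower, whereas Drd2, which melanotrophs carry too, was 2.58-fold higher. Of the 5 other hormone genes Pomc was 2.35-fold higher and Cga, Lhb, Fshb and Tshb were lower, each by at least 56.2-fold. Of 11 signalling genes 1 was higher and 5 lower (median -0.54), and of 20 granule genes 6 were higher and 6 lower (median 0.10). Melanotroph-like cells were 6797 of the 7726 kept barcodes of the p25OE and 618 of the 7927 of the WT library, so the make-up of the 2 libraries moved with these ratios.

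Over kept barcodes at 14 weeks 10.9% of 16575 genes passed, 7.89% higher and 3.04% lower in p25OE; with plain CPM 2275 were higher and 197 lower in place of 1308 and 504. Of 14 lineage factors 1 was higher, Lhx3, an early pituitary factor (1.60-fold), and 4 were lower, Pou1f1 (2.07-fold), Thrb, a thyroid hormone receptor (2.94-fold), Rxrg (1.61-fold) and Esr1, an oestrogen receptor (1.58-fold). Of 16 receptors none was higher and Prlr, the receptor of prolactin, was 1.78-fold lower. The medians were -0.21 for lineage factors and 0.07 for receptors (log2), against 0.00 over all genes. Of 11 signalling genes 2 were higher, Socs3 (3.59-fold) and Igfbp3 (3.74-fold), and Igfbp5 was 1.74-fold lower (median -0.11). Of 20 granule genes 3 were higher and 2 lower (median -0.19), and of the 5 other hormone genes Tshb was 1.72-fold higher. Of the neighbours of Gh 1 of 10 was higher at 14 weeks and 3 of 8 lower at 40 weeks, and of those of Prl with its family 1 of 4 was higher at 14 and 1 of 4 lower at 40 weeks.

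Within Gh-high barcodes few of all genes passed at either age, with no lineage factor or receptor among them, and some signalling genes did. At such shares the absence of calls in lists of this length does not set them apart from other genes. At 14 weeks 4.84% of 13068 genes passed, 2.39% higher and 2.46% lower in p25OE, and of 12 lineage factors and 11 receptors none did (medians -0.13 and -0.07, all genes -0.01). At 40 weeks 2.62% of 10693 genes passed, 1.35% higher and 1.27% lower (144 and 136 genes, or 344 and 59 with plain CPM), and of 11 lineage factors and 6 receptors none did (medians -0.01 and 0.15, all genes -0.08). The ratio of Pou1f1 was 0.908 (0.869 to 0.949) at 14 and 0.963 (0.755 to 1.21) at 40 weeks. That of Rxrg was 0.915 (0.846 to 0.989) and 0.992 (0.670 to 1.42), and that of Ghrhr 1.09 (1.03 to 1.16) and 1.56 (1.21 to 1.97), in the same order of ages. The intervals at 40 weeks rest on 65 barcodes of p25OE. That of Lhx3 (2.25, 1.44 to 3.37) includes 1.5-fold.

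Of 11 signalling genes in Gh-high barcodes at 14 weeks 2 rose and 1 fell. Socs3, the inhibitor induced by cytokine receptors, stood at 303 scaled CPM in p25OE and 83.9 in WT (3.62-fold, 3.44 to 3.81), and Socs1 was 1.81-fold higher. Igfbp5, which binds insulin-like growth factors, was 3.94-fold lower (64.0 scaled CPM in p25OE, 252 in WT). At 40 weeks 4 of 10 rose, Socs3 (11.4-fold, 10.1 to 12.8, with 930 scaled CPM in p25OE and 81.6 in WT), Cish (3.38-fold), Socs1 (2.87-fold) and Stat3 (2.86-fold), while Igfbp5 was 10.3-fold lower (7 UMIs in p25OE). Igfbp5 in Gh-high barcodes of WT stood at 6.63% of its highest class at 14 weeks and 3.99% at 40 weeks, and the part of free RNA in it was not tested. Igfbp5 is also the leading gene of unnamed cluster 22, which carried somatotroph and stem cell markers and held 37 (2.74%) of the Gh-high barcodes of the p25OE and 137 (10.6%) of those of the WT library at 14 weeks. The 9 stem cell markers summed to 107 CPM in Gh-high barcodes of the p25OE and 377 in those of the WT library at 14 weeks, and to 74.3 (5 of 9 detected) in the p25OE and 607 in the WT library at 40 weeks, and their part in the result was not tested. Socs3 was not limited to Gh-high barcodes. With Gh and Prl left out of the total, barcodes low for both hormones held 512 CPM in the p25OE and 150 in the WT library at 14 weeks. At 40 weeks they held 371 in the p25OE and 137 in the WT library. This is another scale than the scaled CPM above, and values of the 2 scales cannot be set against each other. Atf3, a stress-induced factor, is given on the scale without Gh and Prl. It stood at 101 CPM in Gh-high barcodes of the p25OE and 12.3 in those of the WT library at 14 weeks, and at 226 in the p25OE and 8.08 in the WT library at 40 weeks. In scaled CPM its values at 14 weeks were 61.1 in the p25OE and 7.53 in the WT library.

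**Figure D5:**
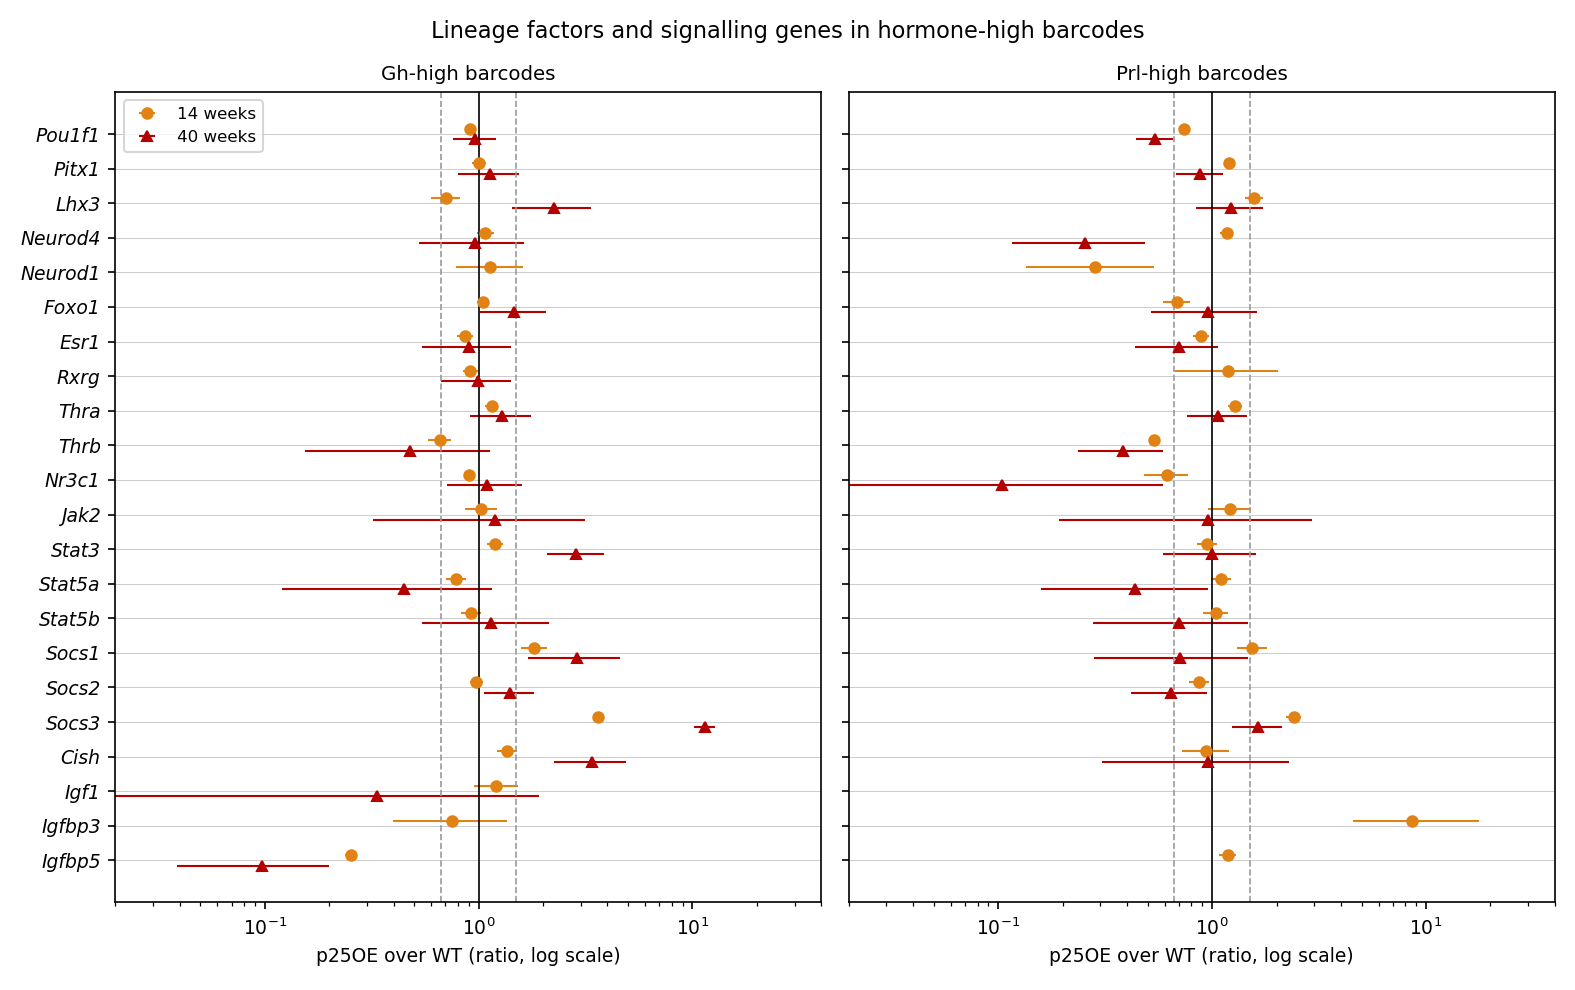
Ratio of p25OE over WT with its 95% counting interval (log axis) for lineage factors and hormone signalling genes in Gh-high (left) and Prl-high (right) barcodes at 14 weeks (circles) and 40 weeks (triangles); dashed lines mark 1.5-fold either way, and genes at 0 in a library or with too few UMIs, and 1 lineage factor, are not drawn. Socs3 lies at 3.62 and 11.4 in Gh-high barcodes, while Pou1f1 and Rxrg lie near 1.

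The 10 highest ratios of Gh-high barcodes at 40 weeks were those of Atf3 (26.8-fold), Sbno2 (12.5-fold), Dll3 (12.3-fold), Espn (12.1-fold), Socs3, Pabpc1l (10.6-fold), Irf1 (9.96-fold), Gem (9.53-fold), Klf2 (8.96-fold) and Zfp36 (8.58-fold). Those of Dll3, Gem, Espn and Pabpc1l rest on 14, 15, 18 and 24 UMIs in p25OE, and the interval of Dll3 was 6.18 to 23.2. Espn and Pabpc1l are among the leading genes of cluster 0, which was named melanotroph-like and held 3759 barcodes of the p25OE library of 40 weeks. At 14 weeks they included the early response gene Egr2 (13.6-fold), Atf3 (8.11-fold) and Ube2c (9.10-fold), a gene of cell division, beside S100a8 and S100a9 of neutrophils. The summed level of 5 neutrophil markers in these barcodes was 25.6 CPM in the p25OE (5 detected) and 0.748 in the WT library (3 detected), and its part in the result was not tested. Summed over 7 markers of division, Gh-high barcodes held 72.5 CPM in the p25OE and 14.2 in the WT library at 14 weeks, and 63.3 in the p25OE and 4.22 in the WT library at 40 weeks. All kept barcodes held more, with 154 CPM in the p25OE and 18.6 in the WT library at 14 weeks. At 40 weeks they held 393 in the p25OE and 12.1 in the WT library. The part of other cells in the sums of Gh-high barcodes was not tested. The 10 lowest at both ages included Igkc, an immunoglobulin gene of plasma cells, with 1 UMI in p25OE and 8626 in WT at 14 weeks, and 0 in p25OE and 4757 in WT at 40 weeks. Over all kept barcodes Igkc was lower too, with 138 UMIs in p25OE and 27910 in WT at 14 weeks, and 13 and 77655 at 40 weeks. In Gh-high barcodes of WT it stood at 0.134% of its highest class at 14 weeks and 0.115% at 40 weeks.

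Of 20 genes of secretory granules in Gh-high barcodes at 14 weeks none rose, and Pcsk1, a prohormone convertase, was 1.86-fold lower. At 40 weeks 2 of 19 rose, Chga (2.91-fold) and Pcsk2 (3.43-fold), and 2 fell, Scg5 (2.41-fold lower) and Chgb (2.45-fold lower). Pcsk2, a convertase of melanotrophs, stood at 392 CPM in the Gh-high barcodes of that p25OE library and at 2550 in its barcodes low for both hormones. The other hormone genes were lower in the Gh-high barcodes of p25OE at both ages, 5 of 5 at 14 weeks and 3 of 5 at 40 weeks. Cga, the shared subunit of the glycoprotein hormones, was 4.16-fold lower at 14 weeks and 124-fold lower at 40 weeks, where it was found in 10.8% of the Gh-high barcodes of the p25OE and 99.7% of those of the WT library. The 6 gonadotroph markers include Cga, Lhb and Fshb, so their sum is not a separate observation. It was 280 CPM in these barcodes of the p25OE and 1135 in those of the WT library at 14 weeks. At 40 weeks 2 of 6 were detected in the p25OE library and all 6, with 2146 CPM, in the WT library. The background of Gh and Prl was lower in p25OE only at 40 weeks, and the part of free RNA in these ratios was not tested.

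In Prl-high barcodes at 14 weeks 4.57% of 12536 genes passed, 3.22% higher and 1.35% lower in p25OE. At 40 weeks 3.77% of 10309 passed, 1.84% higher and 1.93% lower. Of 12 lineage factors 2 were lower at 14 weeks, Thrb (1.88-fold) and Neurod1 (3.54-fold, 11 UMIs in p25OE), and of 11 at 40 weeks 5 were lower, Pou1f1 (1.85-fold), Neurod4 (3.93-fold), Thrb (2.61-fold), Nr3c1 (1 UMI in p25OE) and Rxrg (0 UMIs in p25OE and 135 in WT). None was higher at either age, and the medians were -0.13 and -0.88, with all genes at -0.01 and -0.09. Among receptors Agtr1a, the angiotensin receptor of lactotrophs, was 2.42-fold higher at 14 weeks (1 of 9) and Drd2 was 2.47-fold higher at 40 weeks (1 of 8), where it stood at 63.7 scaled CPM in p25OE and 25.8 in WT. At 14 weeks the ratio of Drd2 was 1.09 (0.981 to 1.21).

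Signalling genes in Prl-high barcodes at 14 weeks included 2 of 10 that were higher, Socs3 (2.41-fold) and Igfbp3 (8.63-fold, from 53 UMIs in p25OE and 12 in WT). At 40 weeks 1 of 9 was lower, Igfbp5, with 0 UMIs in p25OE and 773 in WT, at least 11.5-fold lower against a floor of 3 counts over the library. Of 19 granule genes in the Prl-high barcodes of 40 weeks, 6 were higher, Chgb (5.10-fold), Pcsk2 (4.22-fold), Chga (4.12-fold), Vgf (3.34-fold), Syt1 (3.02-fold) and Scg2 (2.18-fold), and 2 were lower, Pcsk1n (1.98-fold) and Scg5 (1.69-fold), with a median of 0.01 against -0.09 over all genes. Chgb, a granin of dense-core granules, stood at 12979 scaled CPM in the p25OE and 2544 in the WT library. In Gh-high barcodes of that age it was lower in p25OE, and the difference between the classes was not tested. Pcsk2 and Chga are among the leading genes of melanotroph-like clusters. The 6 melanotroph markers, Pomc included, summed to 12814 CPM in the Prl-high barcodes of the p25OE and 15418 in those of the WT library at 40 weeks. Pcsk2 alone stood at 569 CPM in the p25OE and 123 in the WT library. Gh and Prl are left out of the total for Pcsk2 but not for the sums, so the 2 are on different scales. The Prl-high barcodes of the 2 libraries also lie in different clusters at this age, and the part of either in these ratios was not tested. At 14 weeks 1 of 20 granule genes passed, Pcsk2 (2.02-fold higher). Other hormone genes in Prl-high barcodes gave no call among 5 at 14 weeks, while Cga (78.2-fold), Lhb (98.3-fold) and Tshb (9.89-fold) were lower at 40 weeks.

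Among the 10 highest ratios in Prl-high barcodes at 40 weeks were Prss28, a serine protease (63.0-fold, 76 UMIs in p25OE and 27 in WT), Gfra4, a receptor of the glial growth factor family (23.3-fold), Gap43 (20.8-fold) and Espn (15.2-fold). Gap43 and Espn, like Pcsk2, are leading genes of melanotroph-like cluster 0. Prss28 went the other way at 14 weeks, where it was among the 10 lowest with 5 UMIs in p25OE and 73 in WT (7.47-fold lower). The lowest at 40 weeks had no UMI in p25OE and included Prlh and Oxt. Against a floor of 3 counts these were at least 3.19-fold and 2.37-fold lower. At 14 weeks the highest included Pyy (62 UMIs in p25OE, 0 in WT), Ccl7 (37.9-fold), a chemokine, and the histone genes Hist1h2bj (10.9-fold) and Hist1h1b (10.6-fold). The lowest there included the lymphoid genes Igkc, Cd3g and Ms4a4b, which the Prl-high barcodes of WT held at under 1% of the level of their highest class.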

How the data were processed

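Papain digestion of the glands, lysis of red blood cells and library preparation with the 10x Single Cell 3′ v2 chemistry in independent runs are given per the labels' protocols; which library belonged to which run is not given in the sources used here. The deposited values are UMI counts per gene and barcode. The submitters' processing notes name Cell Ranger 3.0.2 and mm10, and the file headers version 3.0.1. The barcode filter and the use of strand are not given in the sources used here.

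Shares were computed per barcode and over summed UMIs, with exact binomial intervals, and ratios with intervals from 2 Poisson counts conditional on their sum. A count of 0 was given a floor of 3 counts over the library. Modes came from a kernel density of log10 shares (bandwidth 0.1). Gene ratios used median-of-ratios scaling over genes with at least 20 UMIs in each library; a gene was tested with at least 50 UMIs in the 2 libraries together, and it passed when its whole interval lay beyond 1.5-fold. Barcodes were clustered without Gh and Prl (10000 per barcode, log scale, 2000 variable genes, 30 principal components, 15 neighbours, Leiden resolution 1) and the 40 clusters named from marker lists (at least 3 markers, 2-fold above the median of the others, in 10% of barcodes); 9 stayed unnamed. Doublets were not called. Tools were Python 3.11.15, scanpy 1.11.5, leidenalg 0.10.2, scipy 1.17.1, numpy 2.4.6 and pandas 2.3.3. The scripts' statistics were tested on simulated data.

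The genes named are Gh, Prl, the other hormone genes, members of the lists (lineage factors, receptors, signalling, granules, locus neighbours, prolactin family, sex-linked genes), the genes whose profile is most like Gh or Prl, by Pearson's r of log2(CPM + 1), and, in Gh-high and Prl-high barcodes, the 10 genes at either end of the ratios at each age, without mitochondrial, ribosomal, haemoglobin and sex-linked genes and unnamed gene models. Atf3 levels, markers of other cells, Cdk5r1 and Crhbp as a class level lie outside the rule or repeat it. The members and lists were chosen with earlier results of these data known. Sex-linked genes gave no call in any comparison (2 tested, Xist and Tsix). The promoter of Gh was not used here. Alternatives changed the filter, the threshold, the scaling, the bandwidth, the minimum of UMIs and the clustering. The value of 1 lineage factor is not reported here, though it is counted in its list.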

Additional observations from a re-analysis of the deposited data

Results flagged for a closer look

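Some measures of Gh and Prl outside the hormone-rich barcodes differed between the genotypes in opposite directions at the 2 ages, and others did not. The ratio of p25OE over WT of the Gh background mode was 2.57 at 14 weeks and 0.0182 at 40 weeks. In melanotroph-like cells the ratio of the Gh share was 2.16 at 14 weeks and 0.0196 at 40 weeks, and that of the Prl share was 1.67 and 0.0397. In macrophage-like cells the ratio of the Gh share was 1.85 at 14 weeks and 0.0237 at 40 weeks. Other measures at 14 weeks were close to 1 or below it: the ratio of the Gh share summed over barcodes under 10% was 1.02, and the summed Gh share was 1.16% in the p25OE and 7.54% in the WT library in T or NK-like cells and 2.70% in the p25OE and 10.7% in the WT library in gonadotroph-like cells. With 1 library per group the difference between the ages was not tested.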

How the results depend on the processing

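No paired analysis was possible because each group was 1 library and the labels carry no replicate numbers; leaving out a library leaves no comparison. Counting intervals do not cover differences between animals, depth differed between libraries, and doublets remain. The ratios of the Gh and Prl share and of barcodes at 10% at 40 weeks kept their direction and their side of 1.5-fold under every alternative run. At 14 weeks the ratio of the Prl share was 0.514 as a mean per barcode, 0.629 without hormone genes in the denominator and 0.585 with median-of-ratios scaling. Over all deposited barcodes the ratio of Prl-rich barcodes at 14 weeks was 0.836, that of the Prl background mode 11.2, that of the Prl high mode at 40 weeks 3.39, and that of barcodes with both genes 1.96, the reverse of 0.492. The last was 0.945 at a threshold of 5% and 0.715 at 20%. With a bandwidth of 0.2 the high mode ratio at 40 weeks was 0.741 for Gh and 1.62 for Prl. The 14-week Gh ratio reversed in melanotroph-like cells to 0.498 (resolution 0.5) and 0.504 (cluster 28 included), and in macrophage-like cells to 0.821 (resolution 2). The causes were not tested. Plain CPM gave 2275 genes higher and 197 lower in kept barcodes at 14 weeks, 5825 and 1718 at 40 weeks, and 344 and 59 in Gh-high barcodes at 40 weeks; it moved the median gene by 0.26, 0.55 and 0.31 (log2). CPM without hormone genes gave 324 lower in kept barcodes at 14 weeks. With at least 200 UMIs, Gh-high barcodes gave 170 higher and 184 lower at 14 weeks and 94 higher at 40 weeks, and Prl-high barcodes 188 and 93 higher at the 2 ages; with no minimum, 251 were higher in Gh-high barcodes at 40 weeks, and 622 and 335 in Prl-high barcodes at the 2 ages. The valleys as thresholds, the exclusion of shared barcode sequences or of those under 1000 UMIs and the counting of cluster 28 were alternatives chosen after seeing the data.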
